A study of Mus musculus with 32 samples.

Results

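The endoplasmic reticulum (ER) folding and collagen secretion machinery was followed through 32 genes, taken by their mouse symbols from a fixed list. All 32 were found among the 25700 gene identifiers of the files, and all passed the filter on low counts in every comparison. By role, 13 are chaperones, co-chaperones and disulfide isomerases, 2 belong to the unfolded protein response, 6 to ER-associated degradation, 2 to the translocon, 3 to COPII export and 6 to the folding of collagen itself.

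RNA was sequenced from mouse tail tendon explants (cores) embedded in a collagen-1 hydrogel and from the hydrogel itself, in 32 samples after 7 days of culture. The groups were the hydrogels with added fibroblasts around cores labelled KO (n = 6) or around WT cores (n = 6), and cores labelled KO beside fibroblasts or in a cell-free hydrogel, and WT cores beside macrophages, beside fibroblasts or in a cell-free hydrogel (n = 4 each). Cores came from B6.129S2-Il6tm1Kopf/J mice, Il-6-/- for those labelled KO and Il-6+/+ for WT, of both sexes and 12 to 15 weeks old, and each core sample pooled explants of 1 mouse. The fibroblasts, called progenitors in the labels, came from WT Achilles tendons pooled over several mice and were passaged, and a hydrogel sample pooled 2 hydrogels and held both these cells and those that had left the core. All groups shared a medium with serum, macrophage-colony stimulating factor and ascorbic acid, which collagen hydroxylation needs, and tension on the cores was released. Separate mice are therefore the replicates of the cores, while the added fibroblasts share their source. The p-values measure the spread between these samples.

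Il6, the gene knocked out in the KO mice, was not lower in the samples with that label. Its level was 5.63 to 39.98 CPM (counts per M counts of the library, M standing for mega, with TMM scaling factors) in hydrogels around cores labelled KO, against 4.58 to 10.4 CPM around WT cores. Cores labelled KO had 10.5 to 37.1 CPM beside fibroblasts and 6.51 to 20.5 CPM without cells, against 3.50 to 13.6, 4.96 to 11.8 and 1.90 to 11.7 CPM in WT cores beside macrophages, beside fibroblasts and without cells. The hydrogels also held the added WT fibroblasts, so their Il6 does not describe the core alone. Cores beside fibroblasts may hold some of these cells too, since the paper reports that they move into the core. In cell-free cores the 2 groups overlapped (KO label over WT, edgeR quasi-likelihood test, log2 fold change 0.79, standard error 0.53, adjusted p = 0.9999). A count per gene does not show which exons were read, so all samples with that label are called labelled KO throughout. Totals ran from 20.4 to 59.9 M counts per sample. Summed markers of macrophages and leukocytes were high in every group, at 2199 to 32381 CPM over 12 genes, and the tendon fibroblast markers summed to 19885 to 56395 CPM over 10 genes. Tissue-wide RNA of this kind cannot tell fewer cells of a type from less RNA per cell.

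A procollagen chain enters the ER through the Sec61 channel, is hydroxylated and folded by general chaperones and by collagen-specific helpers, and leaves in COPII carriers that are enlarged for its long rigid rod. When unfolded protein builds up, the sensor IRE1 (Ern1) splices the Xbp1 transcript, and XBP1 and ATF6 switch on chaperone and degradation genes through short promoter elements. Counts per gene do not show the splicing of Xbp1. In tendon, whose matrix is mostly type I collagen, this machinery carries the bulk of the secretory load.

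The promoter elements are shown because XBP1 and ATF6 are known to act through them, and because several of the chaperone and degradation genes hold one. RefSeq windows on the assembly GRCm38.p6, reaching 250 bases upstream of the gene start, were at hand for 27 of the 32 genes. The ER stress response element (ERSE), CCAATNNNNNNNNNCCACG, was searched on both strands along with ERSE-II, ATTGGNCCACG, and the unfolded protein response element (UPRE), TGACGTGG. ERSE stood in 8 of the 27 genes (29.63%), against 0.1369% of 27025 genes with a window. ERSE-II stood in 2 of them (0.0444% of all genes) and UPRE in 2 (0.7142% of all genes). Any of these motifs was found in 12 of the 27, against 0.8844% of all genes. These windows belong to GRCm38.p6, while the counts were made on GRCm39. The stretches below carry the element in capitals, and where it lies on the opposite strand the capitals read as its reverse complement.
Hspa5, chr2:34772010-34772058, plus strand: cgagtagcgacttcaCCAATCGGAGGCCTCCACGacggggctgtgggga
Hsp90b1, chr10:86705518-86705671, minus strand, 2 elements: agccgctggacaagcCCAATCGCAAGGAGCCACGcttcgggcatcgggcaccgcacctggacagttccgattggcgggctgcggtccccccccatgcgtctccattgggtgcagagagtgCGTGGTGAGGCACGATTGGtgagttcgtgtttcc
Calr, chr8:84847060-84847108, minus strand: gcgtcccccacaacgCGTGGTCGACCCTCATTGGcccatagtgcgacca
Pdia6, chr12:17266476-17266524, plus strand: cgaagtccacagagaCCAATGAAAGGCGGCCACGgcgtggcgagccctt
Creld2, chr15:88819505-88819553, plus strand: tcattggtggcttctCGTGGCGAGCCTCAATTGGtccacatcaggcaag
Derl3, chr10:75893227-75893275, plus strand: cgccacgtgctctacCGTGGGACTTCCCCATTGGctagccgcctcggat
Herpud1, chr8:94386362-94386402, plus strand, ERSE-II: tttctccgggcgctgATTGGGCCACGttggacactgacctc
Sec24d, chr3:123267455-123267492, plus strand, UPRE: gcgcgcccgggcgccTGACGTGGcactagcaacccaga

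In Hspa5 the element ran from base −65 to base −47, counted back from the first transcribed base, and in Calr from −162 to −144. The same ERSE letters were also found upstream of Dnajc3 and Syvn1, ERSE-II just inside the transcript of Dnajb11 and UPRE just inside that of Sec23a. The windows of the chaperone genes Pdia3, Pdia4, Dnajb9 and Sdf2l1 and of the degradation genes Sel1l and Edem1 held none. None of the 3 motifs stood in the windows of the 5 collagen-folding genes that had one (Serpinh1, Fkbp14, Crtap, P3h1 and Ppib), nor in that of Xbp1. A match is a string of letters and not a measured binding site, and these windows leave out more distant sequence.

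**Figure D1:**
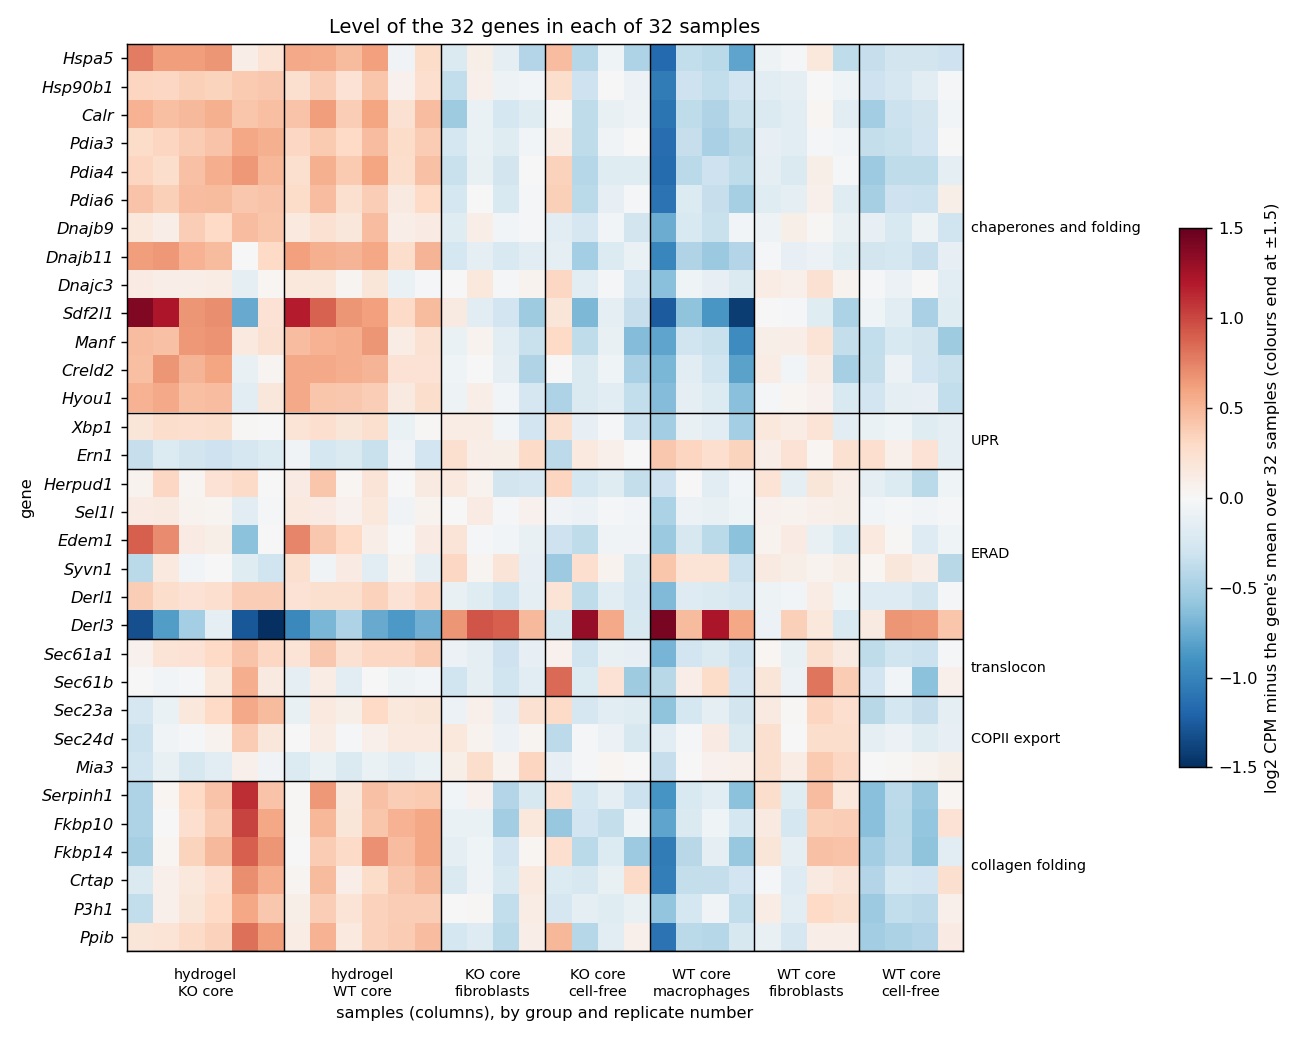
Level of each of the 32 genes (rows, by role) in each of the 32 samples (columns, by group), as log2 CPM minus that gene's mean over all samples. The chaperone rows are red in most hydrogels, Derl3 and Ern1 run the other way, and the leftmost sample of the WT cores beside macrophages (replicate 1) is blue in every row but Derl3, Ern1 and Syvn1.

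Hspa5 (ENSMUSG00000026864), which encodes the main ER chaperone BiP, was at 1471, 1335, 1330, 1361, 926 and 991 CPM in hydrogels around cores labelled KO. Around WT cores it was at 1276, 1271, 1193, 1324, 828 and 1045 CPM. Replicates 5 and 6 were the 2 lowest in both hydrogel groups. Cores labelled KO had 739, 915, 784 and 635 CPM beside fibroblasts and 1186, 639, 825 and 627 CPM without cells. WT cores had 383, 667, 653 and 498 CPM beside macrophages, 820, 848, 960 and 661 CPM beside fibroblasts and 680, 713, 714 and 696 CPM without cells. The group means thus ran from 1236 ± 222 CPM (SD, n = 6) in hydrogels around cores labelled KO to 550 ± 135 CPM (SD, n = 4) in WT cores beside macrophages, and neighbouring core groups overlapped.

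Xbp1 (ENSMUSG00000020484), the transcription factor downstream of IRE1, had a narrower range. Its mean was 183 ± 15.5 CPM in hydrogels around cores labelled KO and 179.9 ± 16.99 CPM around WT cores (SD, n = 6 each). In cores labelled KO it was 161 ± 20.3 CPM beside fibroblasts and 159 ± 26.2 CPM without cells, and in WT cores 132 ± 20.2 CPM beside macrophages, 173 ± 18.2 CPM beside fibroblasts and 150.5 ± 5.48 CPM without cells (SD, n = 4 each). Ordered by mean, no group was further from the next than the larger SD of the pair, but the cores beside macrophages, at the low end, were tested against those beside fibroblasts and are described with that comparison.

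Serpinh1 (ENSMUSG00000070436) encodes HSP47, the chaperone that binds only collagen. Hydrogels around cores labelled KO had the widest spread, with 1025, 1446, 1735, 1895, 3029 and 1899 CPM, against 1425, 2216, 1593, 1921, 1821 and 1849 CPM around WT cores. Cores labelled KO averaged 1272 ± 193 CPM beside fibroblasts and 1316 ± 249 CPM without cells (SD, n = 4 each). WT cores averaged 1037 ± 233 CPM beside macrophages, 1613 ± 289 CPM beside fibroblasts and 1097 ± 238 CPM without cells (SD, n = 4 each).

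Mia3 (ENSMUSG00000056050), the cargo receptor TANGO1 that recruits procollagen to ER exit sites, ran in the other order. It was lowest in the hydrogels, at 137 ± 12.7 CPM around cores labelled KO and 135 ± 4.84 CPM around WT cores (SD, n = 6 each). In cores it was at 169.7 ± 15.5 CPM (KO label, fibroblasts), 147 ± 6.63 CPM (KO label, cell-free), 145 ± 18.9 CPM (WT, macrophages), 179.5 ± 14.95 CPM (WT, fibroblasts) and 154 ± 3.67 CPM (WT, cell-free), with n = 4 each. Both groups of cores beside fibroblasts were the highest.

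Derl3 (ENSMUSG00000009092), a Derlin of ER-associated degradation, was the gene of the 32 with the fewest counts. Hydrogels had 0.377 to 1.03 CPM around cores labelled KO and 0.585 to 0.829 CPM around WT cores, with 11 counts in the lowest sample. Cores had 0.968 to 3.07 CPM over their 5 groups. Derl3 is known from antibody-secreting plasma cells, and the plasma cell markers Jchain, Mzb1 and Igkc were at 0 to 0.382, 0 to 0.0842 and 0 to 0.0937 CPM over all samples. The other 2 genes of that marker list were higher, with Ighm at 1.77 to 16.6 CPM and Sdc1, which other cells also express, at 52.6 to 234 CPM. Ighm was at 10.0 to 13.4 CPM in WT cores beside macrophages, the group with the highest mean of Derl3, against 4.45 to 6.09 CPM without cells, and its part in the level of Derl3 was not tested.

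Sec61b (ENSMUSG00000053317), the beta subunit of the translocon, was uneven within groups. Cell-free cores labelled KO had 148, 71.6, 95.8 and 57.0 CPM, and WT cores beside fibroblasts had 93.2, 77.6, 144 and 107 CPM. The hydrogels had 80.2 to 120.0 CPM around cores labelled KO, where replicate 5 was the highest, and 73.7 to 88.6 CPM around WT cores.

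**Figure D2:**
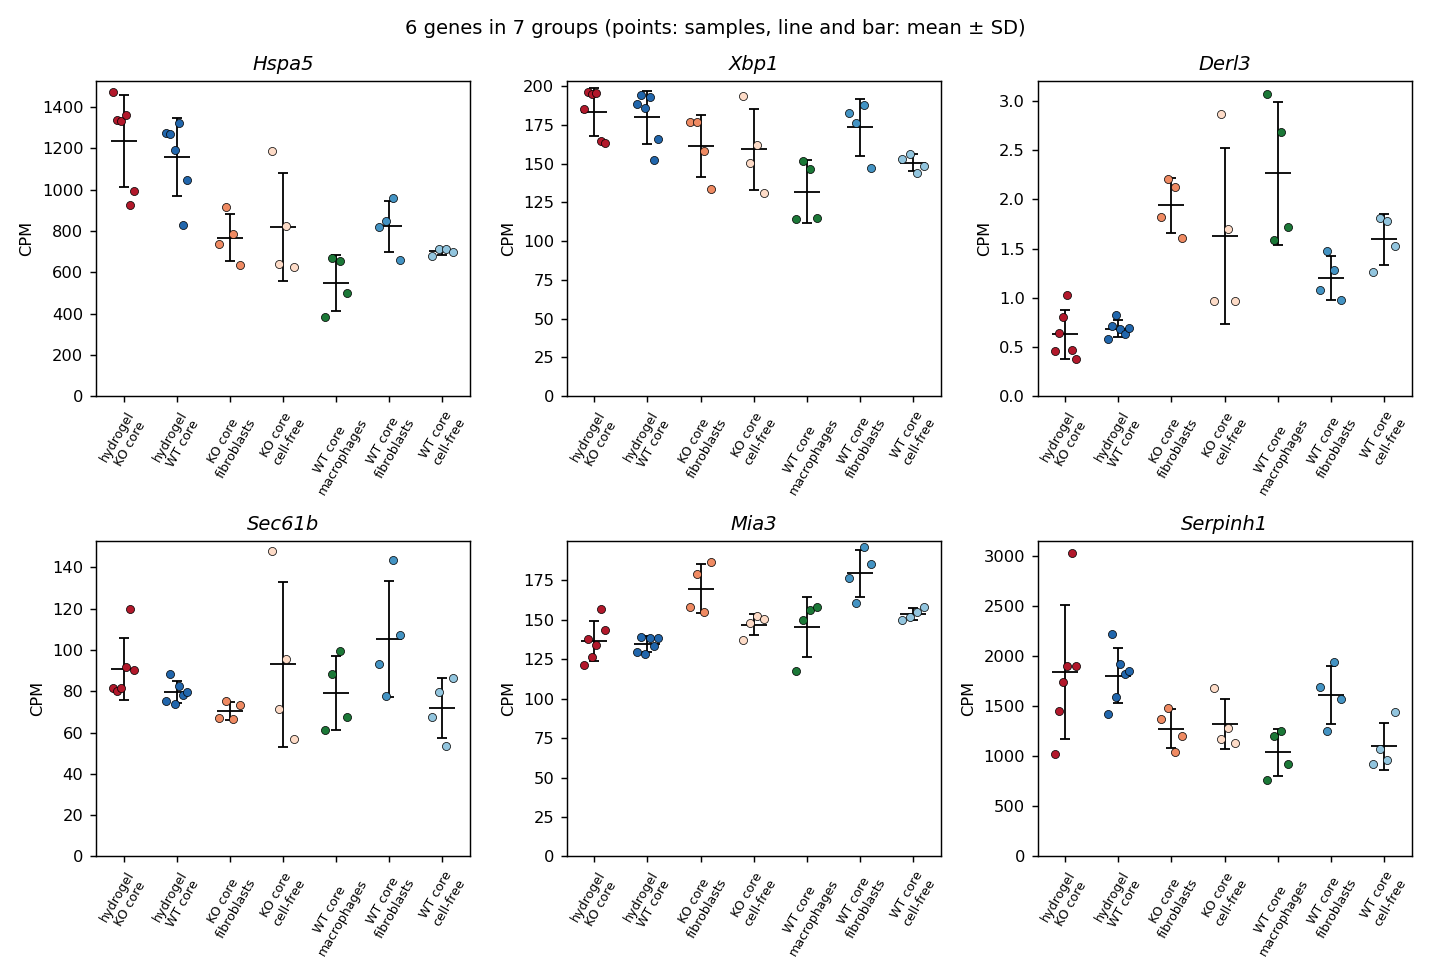
CPM (vertical axes, from 0) of Hspa5, Xbp1, Derl3, Sec61b, Mia3 and Serpinh1 in the 7 groups, with a point for each sample and the mean ± SD as line and bar (n = 6 in hydrogels and 4 in cores). Hspa5 is higher and Mia3 and Derl3 are lower in the hydrogels than in most cores, while the Xbp1 means lie between 132 and 183 CPM.

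The hydrogel was set against the core beside fibroblasts to ask how the folding machinery differs between the outer and inner compartments of the assembloids. The test did not pair the samples. With either genotype, 4 hydrogels had a core sample with the same number and N number in the title. The general chaperones rose as a group in the hydrogel. In assembloids with a core labelled KO, 11 of the 13 chaperone and folding genes rose and none fell, and with a WT core 12 of 13 rose and none fell. Hspa5 was 1.57-fold (KO label) and 1.36-fold (WT) higher, Calr, the calcium-binding lectin chaperone calreticulin, 1.63-fold and 1.45-fold, and the disulfide isomerase Pdia4 1.52-fold and 1.35-fold.

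Genes were said to rise or fall where the adjusted p of edgeR's quasi-likelihood test was under 0.05, with no threshold on the fold change. Over all 32 genes, 15 rose and 3 fell with a core labelled KO, where 25.5% of the 16084 genes tested rose and 30.2% fell. With a WT core 14 rose and 4 fell, where 33.9% of 16037 genes rose and 35.4% fell. Much of the transcriptome thus differed between the compartments. The share of these genes that rose was above that of all genes and the share that fell was below it, which describes this list and was not tested. Their median log2 fold change was 0.39 with a core labelled KO and 0.19 with a WT core, against −0.0015 and −0.00078 over all genes tested. Both comparisons had 13 genes that rose and 3 that fell in common. The share of all genes called the same way in both was not counted, so these 2 counts are no result about the list. The comparisons share no sample, although the added fibroblasts came from 1 source. The cells of the 2 compartments differ in origin, passage and surroundings at once, and these cannot be told apart. The macrophage and leukocyte markers summed to 2199 to 32381 CPM in hydrogels against 8404 to 10000 CPM in cores (KO label), and to 9934 to 18679 CPM against 9239 to 9832 CPM (WT). Osteoclast markers did not overlap, at 504 to 1539 CPM in hydrogels against 215 to 390 CPM in cores (KO label) and 533 to 1332 CPM against 235 to 506 CPM (WT). Schwann cell markers, with 45.8 to 72.6 CPM against 32.5 to 42.8 CPM and 46.9 to 77.8 CPM against 34.8 to 36.3 CPM, and plasma cell markers, nearly all Sdc1, with 166 to 239.8 CPM against 119 to 148 CPM and 182 to 214 CPM against 134 to 160.2 CPM, did not overlap either. The part of these markers in the results was not tested.

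Dnajb11, an Hsp40 partner of BiP, had the lowest p with a WT core. It was at 161, 152, 150, 158, 127 and 149 CPM in these hydrogels, against 103, 96.5, 99.1 and 92.5 CPM in the cores, so that the groups did not overlap (edgeR quasi-likelihood test, log2 fold change 0.57, standard error 0.06, Benjamini-Hochberg adjusted p = 1.05e-05). With a core labelled KO it was at 162, 165, 151, 147, 106 and 129 CPM, against 87.6, 96.2, 89.8 and 94.6 CPM (0.61, standard error 0.12, adjusted p = 0.00144). Calr was at 1887, 1804, 1843, 1902, 1750 and 1800 CPM around cores labelled KO, against 911, 1226, 1099 and 1161 CPM in those cores. The lowest hydrogel of Calr was above the highest core with either genotype (log2 fold changes 0.71 and 0.54, standard errors 0.12 and 0.10, adjusted p = 0.000506 and 0.000353).

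The disulfide isomerases moved alike. Pdia3, which acts on glycoproteins held by calreticulin, had log2 fold changes of 0.54 with a core labelled KO and 0.39 with a WT core (adjusted p = 0.00122 and 0.000316). For Pdia4 they were 0.60 and 0.44 (0.00092 and 0.000912), and for Pdia6, which also binds the IRE1 sensor, 0.52 and 0.35 (0.000482 and 0.00138). No sample of these 3 genes overlapped between hydrogel and core. Hsp90b1, the ER member of the HSP90 family, rose by 0.42 and 0.31 (adjusted p = 0.00853 and 0.00495).

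The co-chaperones and stress-induced partners followed with smaller or less even changes. Hspa5 itself rose by 0.65 (standard error 0.17, adjusted p = 0.00634) and 0.45 (0.14, 0.0119). Hyou1, a nucleotide exchange factor of BiP, rose by 0.39 and 0.35 (adjusted p = 0.0377 and 0.00209), Manf, a secreted BiP partner, by 0.55 and 0.37 (0.00305 and 0.0164), and Creld2, a stress-induced ER protein, by 0.51 and 0.46 (0.0187 and 0.0048). Dnajb9, which represses IRE1 through BiP, rose by 0.31 and 0.19 (0.0173 and 0.0442). Sdf2l1, which works with Dnajb11 on BiP clients, rose by 0.83 with a WT core (standard error 0.15, adjusted p = 0.000463). With a core labelled KO its log2 fold change was 0.88 with a standard error of 0.35 (adjusted p = 0.0511, and 4.08e-05 with the replicate block). Here hydrogel replicate 5 had 22.9 CPM and the other 5 had 44.9 to 102 CPM, against 26.8 to 42.6 CPM in the cores. Dnajc3, an Hsp40 partner also known as p58IPK, was the chaperone with log2 fold changes below 0 (−0.02 and −0.09), and it passed in neither.

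Of the stress sensor and degradation genes, 1 rose and 2 fell with either genotype. Ern1 fell with either genotype, to 45.8, 50.6, 47.9, 47.1, 49.0 and 50.5 CPM in hydrogels around cores labelled KO, against 68.7, 62.2, 62.0 and 71.1 CPM in those cores, without overlap (log2 fold change −0.47, standard error 0.06, adjusted p = 0.000174). With WT cores it was −0.39 (0.07, 0.000516). Xbp1 did not pass (0.15 and 0.01, adjusted p = 0.22 and 0.915), but with the replicate block it rose with a core labelled KO (0.19, adjusted p = 0.0395). Derl1, a Derlin that passes substrates out of the ER, rose by 0.46 and 0.23 (adjusted p = 0.000299 and 0.00206). Derl3 fell by 1.65 on the log2 scale with a core labelled KO (standard error 0.28, adjusted p = 0.000608) and by 0.86 with a WT core (0.18, 0.00104). Herpud1, Sel1l, Edem1 and Syvn1, which form or feed the HRD1 ubiquitin ligase, passed in neither comparison. With the replicate block Edem1 rose with a WT core (0.23, adjusted p = 0.00365), and Syvn1 fell with either genotype (−0.18 and −0.19, adjusted p = 0.0403 and 0.0154).

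Among the exit genes, Mia3 fell in both comparisons. Hydrogels around WT cores had 129, 139, 129, 139, 134 and 139 CPM, against 177, 160, 196 and 185 CPM in the cores (log2 fold change −0.46, standard error 0.06, adjusted p = 4.33e-05). With cores labelled KO the ranges just overlapped, at 121 to 157 CPM against 155 to 187 CPM (−0.34, 0.09, 0.00988). Sec23a and Sec24d, of the inner COPII coat, passed in neither, while with the replicate block Sec24d fell with a WT core (−0.16, adjusted p = 0.0218). Sec61a1, the channel itself, rose by 0.39 with a core labelled KO (adjusted p = 0.00439), while with a WT core its value was 0.19 (0.0512), which passed with the replicate block (0.21, adjusted p = 0.0156).

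Sec61b was called in opposite directions. With a core labelled KO it rose (log2 fold change 0.34, standard error 0.12, adjusted p = 0.034), at 80.2 to 120.0 CPM in hydrogels against 66.7 to 75.2 CPM in cores. With a WT core it fell (−0.45, standard error 0.13, adjusted p = 0.0108), at 73.7 to 88.6 CPM in hydrogels against 77.6 to 144 CPM in cores. In a fit over the 4 groups, added after these values were seen, the difference between the 2 changes was 0.82 (standard error 0.21), and it did not pass over all genes (adjusted p = 0.9999, and 0.811 with the replicate block).

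Of the collagen-folding genes, only Ppib, the proline isomerase cyclophilin B, rose, by 0.58 and 0.33 (adjusted p = 0.0092 and 0.0152). Serpinh1 had 0.50 and 0.12 (0.131 and 0.48), and all 6 genes had values above 0 in both comparisons. Hydrogels and cores with the same code and N number in their titles deviated together, and with that pairing as a replicate block all 6 passed upward with a core labelled KO and 5 of 6 with a WT core, where Serpinh1 did not. The block raised the counts to 22 up and 4 down (KO label) and 20 up and 6 down (WT). The shares of all genes given above are from the fits without the block. The counts with the block thus have no background beside them and are no result about these genes. Without the block, leaving out 1 sample at a time gave 12 to 20 up and 2 to 4 down (KO label) and 13 to 16 up and 4 to 5 down (WT). The calls of Sec61b and Hyou1 (KO label) were each lost in 5 of 10 such fits and that of Dnajb9 (WT) in 4.

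**Figure D3:**
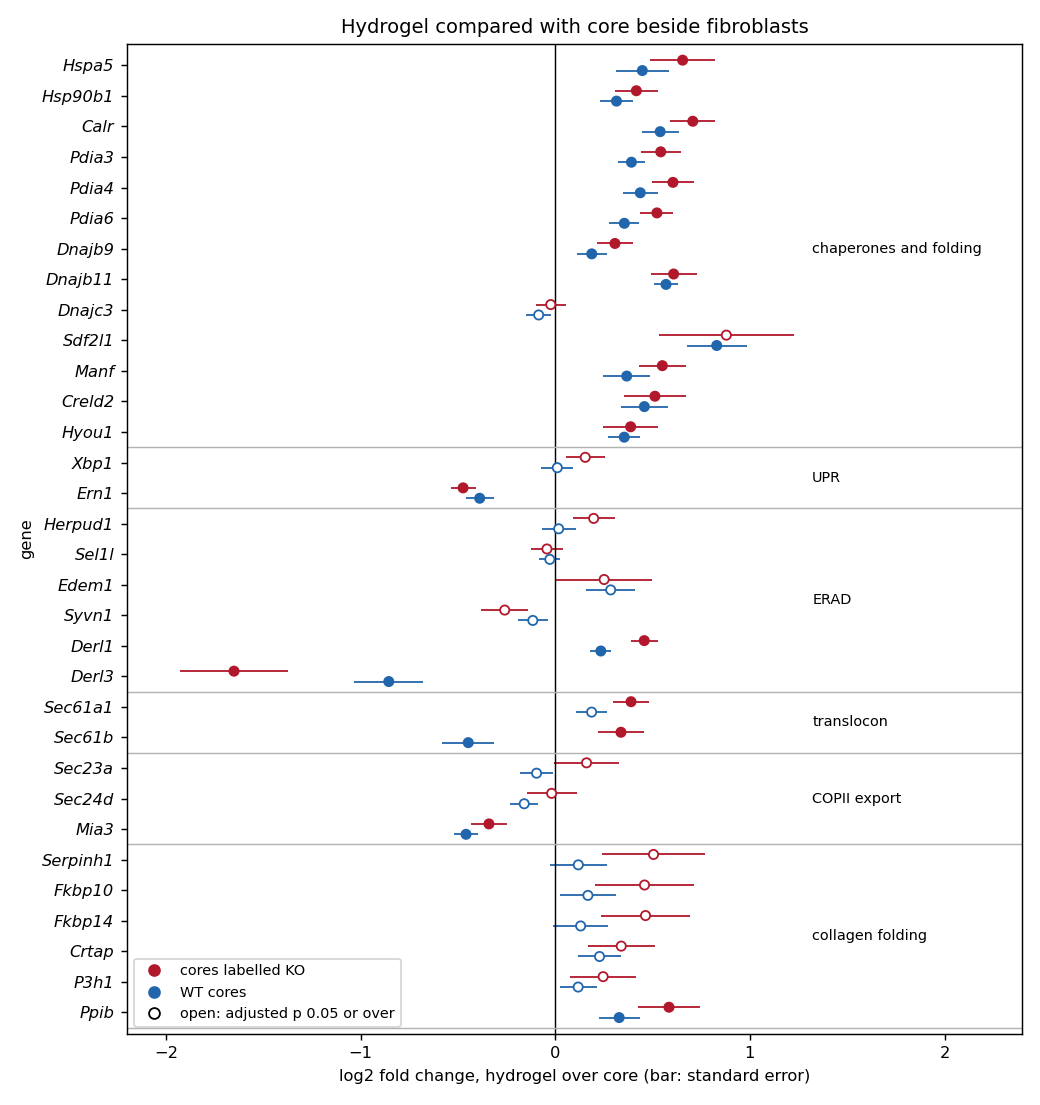
Log2 fold change of hydrogel over core (horizontal axis, bar: standard error) for the 32 genes, with cores labelled KO in red above WT cores in blue. Filled points passed an adjusted p under 0.05. All chaperones but Dnajc3 lie right of 0. Ern1, Derl3 and Mia3 lie left of it with either genotype, and Sec61b is split.

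Genes that rose were found both with and without a promoter element. The share of all genes that rose in both comparisons was not counted, and a link between element and rise was not tested. Of the 10 genes with ERSE or ERSE-II, 6 rose in both comparisons (Hspa5, Hsp90b1, Calr, Pdia6, Creld2 and Dnajb11), Derl3 fell in both, and Dnajc3, Herpud1 and Syvn1 passed in neither. Of the 17 genes whose window held neither, 4 rose in both (Pdia3, Pdia4, Dnajb9 and Ppib).

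Other genes of the pathway are given by count. Over all genes tested, 25.5% rose and 30.2% fell with a core labelled KO, and 33.9% rose and 35.4% fell with a WT core. The counts were not tested against these shares, and a count near them is no result about its list. Among 18 further ER folding genes, 10 rose and 1 fell with a core labelled KO and 12 rose and 2 fell with a WT core, with Dnajc10, a disulfide reductase, at 0.66 and 0.58 and Prkcsh, the regulatory subunit of glucosidase II, at 0.68 and 0.64. Among 21 further translocon and signal peptidase genes, 10 rose and 1 fell with a core labelled KO and 11 rose and 3 fell with a WT core. Spcs1 of the signal peptidase rose by 1.06 and 0.77. Among 21 further COPII and cargo receptor genes, 7 rose and 4 fell (KO label) and 9 rose and 7 fell (WT), among them the small GTPase Sar1b, up by 0.85 and 0.60. The further degradation genes had 7 up and none down of 14 (KO label) and 6 up and 1 down (WT). Of 13 further stress transducers and targets of the PERK branch, 1 rose and 1 fell (KO label) and 1 rose and 2 fell (WT), and Eif2ak3, which encodes PERK, fell by 0.34 and 0.30. Collagen modification was mixed, with 6 up and 1 down of 16 (KO label) and 7 up and 2 down (WT), and P3h2, a prolyl 3-hydroxylase, was lowest at −2.09 and −2.27. Of 10 procollagen genes, the cargo itself, 2 rose (KO label), and 4 rose and 2 fell (WT).

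In WT cores, fibroblasts in the hydrogel were compared with a cell-free hydrogel to ask how the RNA of the core sample differed. The paper reports that added fibroblasts move into the core in such assembloids, so these samples may hold their RNA. Such RNA cannot be told apart here from a change in the cells of the core. Of the 3 COPII genes 2 rose, and of the 6 collagen-folding genes 1. Sec23a was at 191, 177, 218 and 208 CPM beside fibroblasts, against 131, 145, 137 and 159 CPM without cells (log2 fold change 0.49, standard error 0.09, adjusted p = 0.023). Fkbp14, a collagen-binding peptidyl prolyl isomerase, was at 79.5, 63.6, 95.4 and 94.6 CPM against 48.9, 53.4, 46.3 and 62.7 CPM (0.67, 0.14, 0.0325). Sec24d, whose loss impairs procollagen export in fish and humans, was at 235, 199, 239 and 239 CPM against 180, 187, 176 and 183 CPM (0.35, 0.08, 0.0387). None of these 3 genes overlapped between the groups.

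These were the 3 genes of 32 that rose, where 2.46% of 16188 genes did, and none fell, where 1.83% did. In all, 31 of the 32 had a log2 fold change above 0, with a median of 0.22 against −0.018 over all genes. The count above 0 has no share of all genes beside it. At an unadjusted p under 0.05 the count was 18 up and none down, where 10.9% of all genes were up. By role, the medians were 0.47 for collagen folding, 0.46 for the translocon, 0.35 for COPII export, 0.18 for the chaperones and 0.12 for degradation. Sec61a1 came next with 0.35 (adjusted p = 0.0879), and Hspa5 had 0.25 (0.252).

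Single libraries decided how many genes passed. The count was 0 without WT core replicate 1 or 3 beside fibroblasts or without cell-free replicate 1, 1 without replicate 4 beside fibroblasts or cell-free replicate 2 or 3, and 12 without cell-free replicate 4. With all 7 groups in 1 fit it was 0, and DESeq2 called 13 up, a count with no share of all genes beside it. Scaling by library totals in place of TMM put the median of all genes at −0.12 and that of the 32 genes at 0.12, and over all genes 233 rose and 761 fell, against 398 and 297 with TMM.

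Of 16 further collagen modification genes, 6 rose, none fell and 10 did not pass, where 2.46% of all genes rose and 1.83% fell. Plod2, a lysyl hydroxylase, was at 1.08 (adjusted p = 0.00625) and P4ha1, of the prolyl 4-hydroxylase, at 0.93 (0.00831). Of 10 procollagen genes 2 rose, Col3a1 by 1.09 (0.0281) and Col5a1 by 0.75 (0.0234). Of 21 COPII and cargo receptor genes 2 rose, Kdelr3 and Lman1, and of the PERK branch Trib3 rose by 1.40 (0.0183). No further ER folding gene of 18 passed. Markers moved in the same comparison. The summed macrophage and leukocyte markers were at 9239 to 9832 CPM beside fibroblasts, against 10123 to 14225 CPM without cells, and the tendon fibroblast markers, which include Col1a1 and Col3a1, were at 32924 to 56395 CPM against 26640 to 41508 CPM. Their part in the result was not tested.

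In WT cores beside macrophages, 2 of the 32 genes fell compared with the cell-free cores, where 4.65% of 16441 genes did, a share near this background, and none rose, where 1.03% did. Sdf2l1 was at 16.3, 25.5, 21.1 and 14.4 CPM beside macrophages, against 37.0, 34.5, 27.6 and 34.2 CPM without cells (log2 fold change −0.77, standard error 0.17, adjusted p = 0.0301). Edem1, which hands misfolded glycoproteins to degradation, was at 98.0, 122, 109 and 94.2 CPM against 160, 147, 127 and 138 CPM (−0.42, 0.11, 0.0499). Both genes were lower in every sample beside macrophages, which held for 5 of the 32 genes. The share of all genes was not counted. Dnajb11 had −0.33 (0.149) and Ern1 0.23 (0.18). All 13 chaperone genes had values below 0, with a median of −0.24, against 0.005 over all genes. That count has no share of all genes beside it. Neither call held in 5 of the 8 fits that left out 1 sample (without macrophage replicate 1 or 3 or without cell-free replicate 1, 2 or 4), and none with library totals, where the median of all genes was 0.12 and that of the 32 was −0.04. Without macrophage replicate 1 the median of the 32 was −0.03. The macrophage and leukocyte markers summed to 5382 to 12406 CPM beside macrophages against 10123 to 14225 CPM without cells. Cd14 at −1.39 and Itgam at −1.55 were called lower. The rest of that list did not pass, and Csf1r (0.20) and C1qb (0.30) lay above 0. The tendon fibroblast markers summed to 19885 to 39726 CPM against 26640 to 41508 CPM. Of the markers of other cell types, Kdr (−2.04) fell and Ighm (1.23), Pecam1 (1.68) and Myh4 (1.83) rose. The part of these markers in the result was not tested.

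The larger difference was between WT cores beside macrophages and those beside fibroblasts. Here 9 genes fell, where 10.7% of 16370 genes did, and Derl3 rose, where 8.85% did. The median of the 32 was −0.40 against 0.011 over all genes, and 29 of 32 lay below 0, a count with no share of all genes beside it. Sdf2l1 was at 38.6, 37.9, 34.2 and 27.8 CPM beside fibroblasts, above every sample beside macrophages (−0.82, standard error 0.17, adjusted p = 0.0137). Sec23a was at 115, 145, 159 and 144 CPM beside macrophages (−0.48, 0.11, 0.0189), also without overlap. Fkbp14 was at 33.9, 52.6, 63.6 and 47.6 CPM (−0.74, 0.19, 0.0249), where the highest of these samples lay just under the lowest beside fibroblasts. Without overlap, 16 of the 32 genes lay below and 2 above, and the share of all genes was not counted.

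The other genes that fell were Dnajb11 (−0.47, adjusted p = 0.0208), Edem1 (−0.40, 0.0274), Sec61a1 (−0.43, 0.0358), Manf (−0.57, 0.0361), the prolyl 3-hydroxylase P3h1 (−0.42, 0.0453) and Xbp1 (−0.38, 0.0495). Derl3 was at 3.07, 1.59, 2.69 and 1.72 CPM beside macrophages, against 1.08, 1.47, 1.28 and 0.975 CPM beside fibroblasts (0.93, 0.0326), and its call was lost in 5 of 8 fits that left out 1 sample. Hspa5 had −0.56 (0.0591), and Serpinh1, with 764, 1203, 1255 and 925 CPM against 1688, 1247, 1943 and 1575 CPM, had −0.62 (0.0513).

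Samples with the same code and N number deviated together here, and with the replicate block 18 genes fell, 8 of 13 chaperones and 5 of 6 collagen-folding genes among them. The share of all genes given above is from the fit without the block, so these counts have no background beside them. Without the block the count was 2 without fibroblast replicate 1, 1 without fibroblast replicate 3 and 6 to 12 without any other sample. Macrophage replicate 1 was the lowest of its group for Hsp90b1, Pdia4, Sel1l, Derl1 and Crtap by a wide gap, and without it 7 genes fell and the median was −0.30. With library totals the median of all genes was 0.20, that of the 32 was −0.21, 4 fell and 2 rose, and over all genes 3743 rose and 745 fell, against 1449 and 1751 with TMM.

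Genes of the other lists fell too, where 10.7% of all genes did. Beside macrophages 13 of 21 further translocon and signal peptidase genes fell, 11 of 21 COPII and cargo receptor genes, 9 of 16 collagen modification genes, 6 of 18 ER folding genes, 5 of 10 procollagen genes, 3 of 14 degradation genes and, of the 13 stress transducers and PERK branch genes, Trib3 alone (−1.44, adjusted p = 0.00329). None of the genes on these 7 lists rose. P4ha1 fell by 1.05 (adjusted p = 0.00344), Plod2 by 1.10 (0.00455) and Ero1a, the oxidase that recharges disulfide isomerases, by 0.85 (0.0028). The tendon fibroblast markers summed to 19885 to 39726 CPM beside macrophages, against 32924 to 56395 CPM beside fibroblasts, and the macrophage and leukocyte markers to 5382 to 12406 CPM against 9239 to 9832 CPM. Whether they account for the lower values was not tested. The 3 comparisons of WT cores share samples in pairs and are not independent of each other.

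**Figure D4:**
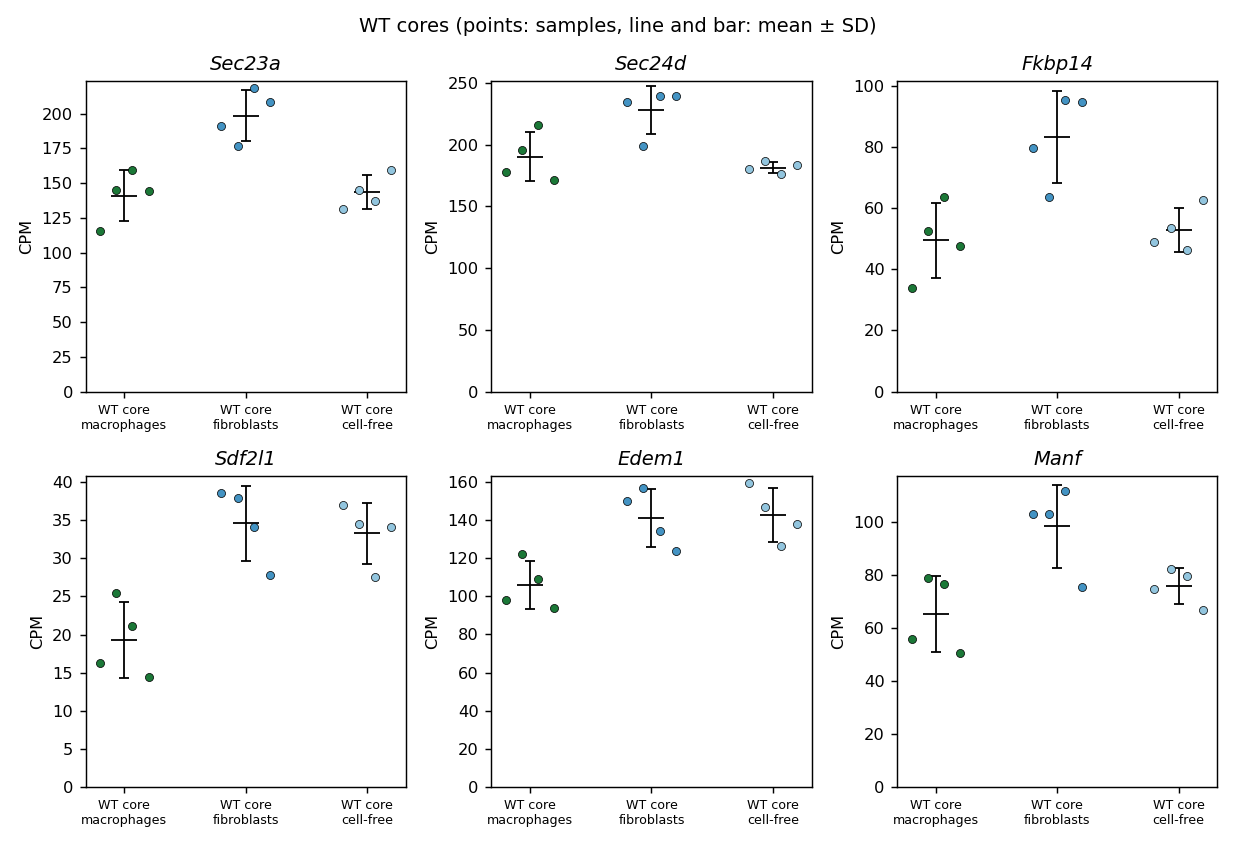
CPM (vertical axes, from 0) of Sec23a, Sec24d, Fkbp14, Sdf2l1, Edem1 and Manf in WT cores beside macrophages, beside fibroblasts and without cells, with a point for each sample and the mean ± SD (n = 4). Sec23a, Sec24d and Fkbp14 stand higher beside fibroblasts than without cells, and Sdf2l1 and Edem1 stand lower beside macrophages than in either other group.

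In cores labelled KO, fibroblasts against a cell-free hydrogel gave no call among the 32 genes, where 0.301% of 15965 genes rose and 0.132% fell. None passed in DESeq2, and none reached an unadjusted p under 0.05 in edgeR, where 11.7% of all genes did. The lowest p was that of Mia3, at 158, 179, 155 and 187 CPM beside fibroblasts against 137, 148, 152 and 150 CPM without cells. These samples did not overlap (log2 fold change 0.20, standard error 0.10, adjusted p = 0.465). That held for 2 of the 32 genes, and the share of all genes was not counted. Hyou1 followed with 0.23 (0.47), Sec24d with 0.21 (0.498) and Edem1 with 0.19 (0.56). The values of the genes called in WT cores were 0.21 for Sec24d, 0.07 for Fkbp14 and 0.09 for Sec23a. The median over the 32 genes was 0.019.

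The interaction asks whether the change beside fibroblasts differed between genotypes. No gene of the 32, and 0% of 16772 genes, passed in either direction, and none of the 32 passed in DESeq2, which called 1 of all genes. At an unadjusted p under 0.05 it was 5 of 32, all lower with the KO label, where 3.01% of all genes were called. These were Sec61b (−0.99, standard error 0.35), Sec61a1 (−0.41, 0.15), Fkbp14 (−0.61, 0.24), Serpinh1 (−0.64, 0.26) and Sec23a (−0.41, 0.18), each with an adjusted p of 0.985. The median over the 32 genes was −0.24, with 27 below 0. The median of all genes and their share below 0 are not given beside these values, which are no result about this list. The calls made in WT cores are thus not shown to differ from the values in cores labelled KO.

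Between the genotypes no gene of the 32 passed in any of 3 comparisons, in edgeR or in DESeq2, and over all genes edgeR called 0% of 16065, 16088 and 15227. DESeq2 called 8 up and 6 down of all genes in cell-free cores, 17 up and 28 down beside fibroblasts and 1 up in hydrogels. In cell-free cores, KO label against WT, 0 of 32 reached an unadjusted p under 0.05 (2.11% of all genes), and the 4 lowest p belonged to Sec23a (0.25), Pdia4 (0.31), Ppib (0.37) and Sec61b (0.41), all with an adjusted p of 0.9999. Replicate 1 of the cell-free cores labelled KO was the highest of its group for each of these genes, with 212 CPM of Sec23a against 147 to 155 CPM in the other 3.

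In cores beside fibroblasts, 5 of 32 reached an unadjusted p under 0.05, 4 lower and 1 higher with the KO label, where 8.88% of all genes did in either direction. Sec61b was at 67.1, 75.2, 66.7 and 73.3 CPM in cores labelled KO, against 93.2, 77.6, 144 and 107 CPM in WT cores (−0.58, standard error 0.16, adjusted p = 0.457). Derl3 was at 1.82, 2.21, 2.13 and 1.61 CPM against 1.08, 1.47, 1.28 and 0.975 CPM (0.69, 0.19, 0.457). Neither gene overlapped between the groups, nor did Derl1, at 85.2 to 96.6 CPM against 98.7 to 113 CPM. The share of all genes without overlap was not counted. In order of p, Fkbp14 (−0.35, adjusted p = 0.536) and Sec61a1 (−0.24, 0.545) came after Derl3 and Sec61b.

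In the hydrogels the genotypes overlapped for every gene. None of the 32 reached an unadjusted p under 0.05, where 2.65% of all genes did, and log2 fold changes ran from −0.13 to 0.20 with a median of 0.006. Pdia6 had 0.13 (standard error 0.07), at 457 to 494 CPM around cores labelled KO against 392 to 489 CPM around WT cores. Sec61b had 0.20 (0.10), Syvn1 −0.13 (0.10) and Hsp90b1 0.09 (0.08), each with an adjusted p of 0.9997.

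Single hydrogels stood far apart within the group around cores labelled KO. Hydrogel replicate 5 around a core labelled KO had the lowest macrophage and leukocyte marker sum of the 12, at 2199 CPM, and 22573 CPM of Col1a1, and replicate 1 had the highest sum, at 32381 CPM, and 4211 CPM of Col1a1. In these 2 hydrogels Serpinh1 was at 3029 and 1025 CPM, the collagen prolyl isomerase Fkbp10 at 427 and 154 CPM, and Sec24d at 260 and 160 CPM. Sdf2l1 ran the other way, at 22.9 and 102 CPM, as did Edem1, at 94.7 and 269.9 CPM. The other 10 hydrogels lay between them for each of these genes.

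A slope on the log2 marker sum was fitted over the 12 hydrogels with the genotype as a term, chosen after these values were seen. It was below 0 and passed for all 6 collagen-folding genes (Crtap, the partner of P3h1 and Ppib in the prolyl 3-hydroxylation complex, among them), all 3 COPII genes and both translocon genes, and above 0 for 7 genes, 5 chaperones (Sdf2l1, Dnajb11, Hyou1, Hspa5 and Creld2) and Edem1 and Sel1l. Serpinh1 changed by −0.37 (standard error 0.07, adjusted p = 0.000796) and Sdf2l1 by 0.57 (0.06, 2.93e-05) on the log2 scale for each doubling of the sum. Much of the transcriptome did the same, with 28.1% of 15227 genes higher and 23.4% lower, so the counts of 7 and 11 of 32 are no result about these genes. The other chaperones and degradation genes had slopes on either side of 0, such as −0.10 for Pdia4, −0.08 for Pdia3 and −0.05 for Herpud1, none of which passed. With the title code as a further term 4 and 5 passed. Without replicates 1 and 5 around cores labelled KO, 3 (Sdf2l1, Dnajb11 and Edem1) and 0 passed, and with both changes 0, where no gene of the transcriptome passed either. The slopes of the collagen-folding genes without these 2 hydrogels were −0.57 for Fkbp10 (standard error 0.16), −0.55 for Fkbp14 (0.20), −0.44 for Crtap (0.16) and −0.34 for Serpinh1 (0.20), with standard errors larger than over all 12 hydrogels.

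The number in the sample titles (150, 152 or 154), which the labels do not explain, also divided the hydrogels. In 7 of the 32 genes all 4 hydrogels coded 154 lay below all 8 others, where 3.67% of the genes tested did. They were Hspa5, Dnajc3, Sdf2l1, Manf, Creld2, Hyou1 and Xbp1. Hspa5 was at 828 to 1045 CPM in the hydrogels coded 154 against 1193 to 1471 CPM in the others, and Xbp1 at 153 to 166 CPM against 185 to 196 CPM. Fkbp10 and Sec24d lay above the others, where 3.16% of the genes tested did. Code 154 also held the hydrogels with 3 of the 4 lowest marker sums, so that these counts do not separate the code from the cell content. The slope fit with the title code as a term, given above, pools the codes. With 4 hydrogels a code, no slope was fitted within a single code.

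**Figure D5:**
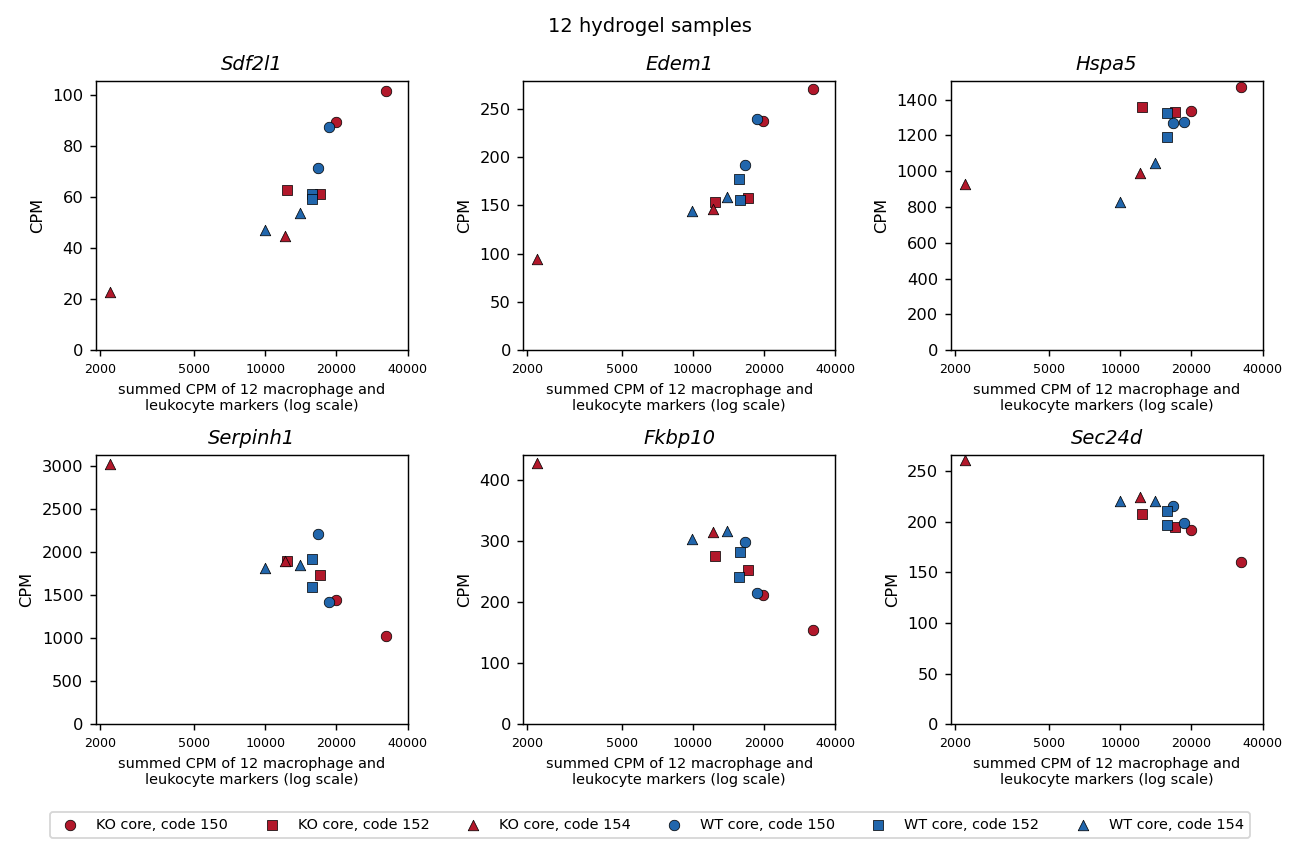
CPM (vertical axes, from 0) of 6 genes in the 12 hydrogels against the summed CPM of 12 macrophage and leukocyte markers (horizontal axis, log scale), coloured by the core's genotype label and shaped by the title code. Sdf2l1 and Edem1 stand higher and Serpinh1, Fkbp10 and Sec24d lower with a higher sum, the ends being set by KO replicates 5 (2199 CPM) and 1 (32381 CPM).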

How the data were processed

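Total RNA depleted of ribosomal RNA was sequenced with strand information from cores and hydrogels. The authors aligned reads to GRCm39 with kallisto 0.46.1 (from the submitters' processing notes) and deposited estimated counts per Ensembl gene as whole numbers, not normalized. The release of the gene annotation was not stated in the sources used here. Samples with degraded RNA were accepted by the study, which can raise the spread between samples. Symbols were matched for 25587 of 25700 identifiers. Levels are CPM with TMM factors over all 32 samples and 17482 genes. Tests used edgeR 4.0.16 in R 4.3.3 (filterByExpr, TMM, quasi-likelihood F test) on the samples of the groups compared, with adjustment over all genes tested. Estimated counts per sample ran from 20.4 to 59.9 M. Of the 32 genes Derl3 had the fewest, with 11 counts in its lowest sample.

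The members and the lists were chosen with earlier results of these data known. Genes were named in order of p among those called, or the 4 with the lowest p where fewer than 4 were called, with the levels of Hspa5, Xbp1, Derl3, Sec61b, Mia3 and Serpinh1 given throughout and at most 3 genes of each of 7 further pathway lists. Genes named outside this rule, among them those used to describe the hydrogels, were chosen after their values were seen. DESeq2 1.42.0, other scaling, filters, a joint fit, blocks and leaving out each sample were alternatives. Samples sharing a title code and N number were checked as pairs by the correlation of deviations from the group means. These pairs all correlated by over 0.1 for both hydrogel comparisons with cores, for the macrophage comparisons, for fibroblasts against cell-free cores labelled KO and for the genotypes in hydrogels, and not in the other comparisons. Unmatched samples reached up to 0.341 for hydrogels against WT cores, where the lowest pair had 0.266. For the genotypes in hydrogels they reached up to 0.801, where the highest pair had 0.662, so passing 0.1 does not by itself show pairing. The count test was checked on simulated data. The promoter sequences are RefSeq windows on GRCm38.p6.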

Additional observations from a re-analysis of the deposited data

Results flagged for a closer look

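Among 224 combinations of a gene and a group, 12 had a highest or lowest sample far from the others by Dixon's 95% criterion, which chance exceeds in about 1 of 20 groups, or 11.2 of 224. WT cores beside macrophages, replicate 1, held 5 of them, all lowest, with 494 CPM of Hsp90b1 (nearest 789.7), 155 CPM of Pdia4 (nearest 262), 186 CPM of Sel1l (nearest 239), 66.1 CPM of Derl1 (nearest 87.4) and 69.1 CPM of Crtap (nearest 111). Cell-free WT core replicate 4 was highest for Pdia3, at 665 CPM (nearest 544), and for Ppib, at 389.9 CPM (nearest 264). Around WT cores, hydrogel replicate 4 was highest for Dnajb9, at 40.9 CPM (nearest 34.7), and replicate 5 was lowest for Dnajb11, at 127 CPM (nearest 149). Hydrogel replicate 5 around a core labelled KO was highest for Sec61b, at 120.0 CPM (nearest 91.7). Cell-free core replicate 1 labelled KO was highest for Sec23a, at 212 CPM (nearest 155), and WT core replicate 2 beside fibroblasts was lowest for Sec24d, at 199 CPM (nearest 235).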

How the results depend on the processing

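Signs were followed for 74 fold changes, those of the genes called, or of the 4 with the lowest p where fewer than 4 were called. None of them changed sign under the alternatives tried, but this choice favours stable signs and leaves out the other members. No count of calls among the 32 genes changed direction, while library totals turned the balance of calls over all genes, as given with the comparisons of WT cores. A log2 fold change beyond 0.5 as a further condition left 9 up and 1 down in the hydrogel with a core labelled KO, 3 up and 1 down with a WT core, 1 up beside fibroblasts in WT cores, 1 down for macrophages against cell-free cores and 3 down for macrophages against fibroblasts. DESeq2 called 13 up beside fibroblasts in WT cores, and 2 up and 15 down for macrophages against fibroblasts. These DESeq2 counts have no share of all genes beside them. Library totals without TMM gave 0 for macrophages against cell-free cores, and 2 up and 4 down for macrophages against fibroblasts. Size factors of the DESeq2 kind in edgeR, no filter on low counts and a minimum of 10 counts in every sample each gave 1 down for macrophages against cell-free cores. With all 7 groups in 1 fit, 0 passed both for fibroblasts and for macrophages against cell-free WT cores. For macrophages against fibroblasts the replicate block gave 18 down, and the title code as a block gave 20 down, both without a share of all genes beside them. The cause of these differences was not tested. Leaving out 1 sample at a time gave 13 to 16 up and 4 to 5 down for the hydrogel with a WT core, 12 to 20 up and 2 to 4 down with a core labelled KO, 0 to 12 up for fibroblasts and 0 to 2 down for macrophages against cell-free WT cores, and 0 to 1 up and 1 to 12 down for macrophages against fibroblasts. For fibroblasts against cell-free WT cores the title code and N number did not pair the samples by this rule. There the replicate block gave 3 up, with Sec24d lost (edgeR adjusted p = 0.0677) and Manf gained (0.0358). Depth limits only Derl3, with 11 counts in its lowest sample.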
